A study of Mus musculus with 12 samples.

Results

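The scavenger receptors for oxidized low-density lipoprotein (oxLDL) were followed as 10 genes, taken by their Ensembl identifiers from the 55357 gene rows of 2 count tables, one of mouse liver and one of RAW264.7 cells. They were Msr1 and Marco (class A), Cd36 and Scarb1 (class B), Cd68 (class D), Olr1 and Mrc1 (class E), Cxcl16 (class G), Stab1 (class H) and Cd163, the haemoglobin-haptoglobin receptor. The libraries fell into 4 groups of 3. Each liver library came from the pooled livers of a pair of wild-type male C57BL/6J mice aged 8 to 9 weeks, gavaged for 7 days with vehicle (2.5% Tween-80) or with 90 mg/kg/d of esculetin, a coumarin made by plants. All of these mice ate a control diet with 10% of kcal from fat for 4 days and then a high-fat diet with 60% of kcal from fat for 3 days. RAW264.7 is a mouse macrophage cell line, so its 3 libraries per group came from 1 line. Both cell groups received 25 µg/mL of dye-labelled oxLDL for 24 h, together with DMSO or with 40 µg/mL esculetin. The effect of oxLDL itself was therefore not analysed here.

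Scavenger receptors bind modified lipoproteins, apoptotic cells and other polyanionic particles. In macrophages, the class A receptors and CD36 take up oxLDL without feedback from the sterols of the cell, and the cholesterol they deliver can turn a macrophage into a foam cell. In liver, the same gene family divides among cell types. Hepatocytes carry SR-BI (Scarb1), which takes cholesteryl ester from HDL, while Kupffer cells and sinusoidal endothelial cells clear modified lipoproteins and glycoproteins from the blood through MARCO, CD163, the mannose receptor and the stabilins.

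RefSeq promoters of the GRCm38.p6 build were at hand for 7 of the 10 receptors, with 1 start site per gene. The 250 bases before the start site are shown for Cd36 and Stab1, which rose in the cells, and for Marco and Cd68, whose liver values separated the groups. Capitals mark matches, on either strand, to TTNNGNAA, the motif letters of C/EBP factors, and to GAGGAA, those of PU.1. Where matches overlap, the capitals run on.
Cd36 promoter, chr5:17835897-17836146, minus strand: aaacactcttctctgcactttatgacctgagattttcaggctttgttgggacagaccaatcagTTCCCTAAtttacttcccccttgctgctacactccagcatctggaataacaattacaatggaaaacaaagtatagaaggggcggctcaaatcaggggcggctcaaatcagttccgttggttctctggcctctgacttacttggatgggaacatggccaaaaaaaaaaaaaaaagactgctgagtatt
Stab1 promoter, chr14:31168642-31168891, minus strand: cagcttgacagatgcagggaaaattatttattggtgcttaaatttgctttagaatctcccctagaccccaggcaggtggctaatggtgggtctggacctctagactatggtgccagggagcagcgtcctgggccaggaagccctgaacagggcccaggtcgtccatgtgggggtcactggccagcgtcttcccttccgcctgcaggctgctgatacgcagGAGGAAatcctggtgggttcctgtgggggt
Marco promoter, chr1:120505025-120505274, minus strand: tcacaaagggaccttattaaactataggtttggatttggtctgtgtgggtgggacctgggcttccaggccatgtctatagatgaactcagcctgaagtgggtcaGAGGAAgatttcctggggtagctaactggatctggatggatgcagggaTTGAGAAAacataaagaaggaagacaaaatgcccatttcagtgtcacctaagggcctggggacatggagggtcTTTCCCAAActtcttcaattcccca
Cd68 promoter, chr11:69666171-69666420, minus strand: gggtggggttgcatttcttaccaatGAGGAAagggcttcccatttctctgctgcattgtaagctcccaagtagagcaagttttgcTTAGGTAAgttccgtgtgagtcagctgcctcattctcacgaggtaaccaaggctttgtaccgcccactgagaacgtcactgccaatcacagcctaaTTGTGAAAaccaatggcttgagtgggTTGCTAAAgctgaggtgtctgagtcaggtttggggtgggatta
In the 300 bases that reach 50 bases past the start site, TTNNGNAA was found in 5 of the 7 receptor promoters, against 40.7% of all 32851 promoters in the same table. GAGGAA was found in 5 of 7, against 28.3% of all promoters. Cd36 held 1 match to TTNNGNAA, which began 187 bases before the start site, and none to GAGGAA. Stab1 held 1 match to GAGGAA at position -30 and none to TTNNGNAA. CCAAT, bound by NF-Y, occurred in 6 of 7 (37.4% of all promoters), and AGGTCA, a nuclear receptor half-site, in Cd36 and Olr1 (16.3%). TGANTCA, bound by AP-1, occurred in Cd68 and Olr1 (7.81%). TGANNNNGC, bound by Nrf2, occurred in Cd68 alone of the 7 (41.3% of all promoters), and one of its matches there lay over a TGANTCA match at position -149. These are matches of letters in a short window.

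Library totals ran from 14659876 to 20346460 counts in liver and from 13752842 to 20001959 in cells. Along the first principal component of the liver table, which held 39.9% of the variance, vehicle replicate 1 lay at -47.9 and the other 5 libraries between -3.44 and 19.4. Of the 8 Kupffer cell markers, Timd4, C1qa and C1qb were at 0 in all 6 cell libraries, and Clec4f, Vsig4 and Folr2 had group means of at most 0.495 CPM (CPM is the count scaled to a common library total). Cd5l stood at 2.14 CPM with DMSO and 0.533 with esculetin, and Adgre1, which macrophages in general share, at 33.8 and 41.9 CPM, whereas the macrophage genes Csf1r and Lyz2 stood at 848 and 638 CPM in DMSO-treated cells.

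Which receptors each sample contained was first compared per length, as TPM, the count per base of merged exons scaled to the same sum in each library. In DMSO-treated cells, Cd68, a lysosomal glycoprotein, led with a level of 1670 ± 123 TPM (SD, n = 3), followed by Scarb1 with 126 ± 4.97 TPM and Cxcl16 with 11.6 ± 1.36 TPM. Cd36 and Msr1 followed with levels of 1.27 ± 0.216 and 1.16 ± 0.179 TPM, and the ranges of this last pair overlapped. Stab1 stood at 0.223 TPM, and Olr1, Mrc1, Marco and Cd163 at 0.0364 TPM or less. RAW264.7 cells thus contained RNA of both class B receptors, with far more from Scarb1 than from Cd36, and almost none from Marco, Mrc1, Cd163 and Olr1.

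The order differed in liver. Scarb1 led in vehicle-treated mice with a level of 59.5 ± 6.68 TPM (SD, n = 3), above Cd68 with 37.5 ± 3.02 TPM, and neither range overlapped that of the gene below it. Stab1 (10.2 TPM), Mrc1 (7.99), Marco (7.76), Cxcl16 (7.43), Cd36 (7.34) and Cd163 (5.23) followed, with overlapping ranges between each pair of neighbours. Msr1 reached 2.21 ± 0.352 TPM and Olr1, the lectin-like oxLDL receptor LOX-1, 0.0565 TPM. The per-length level of Cd36 depended on the exons counted: over the Ensembl canonical transcript it was 2.65 instead of 1.27 TPM in DMSO-treated cells and 15.2 instead of 7.34 TPM in vehicle-treated liver, which placed it below Msr1 and next after Cd68, respectively. This length was chosen after the data were seen, and it alters levels between genes, not the comparison of treatments.

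**Figure D1:**
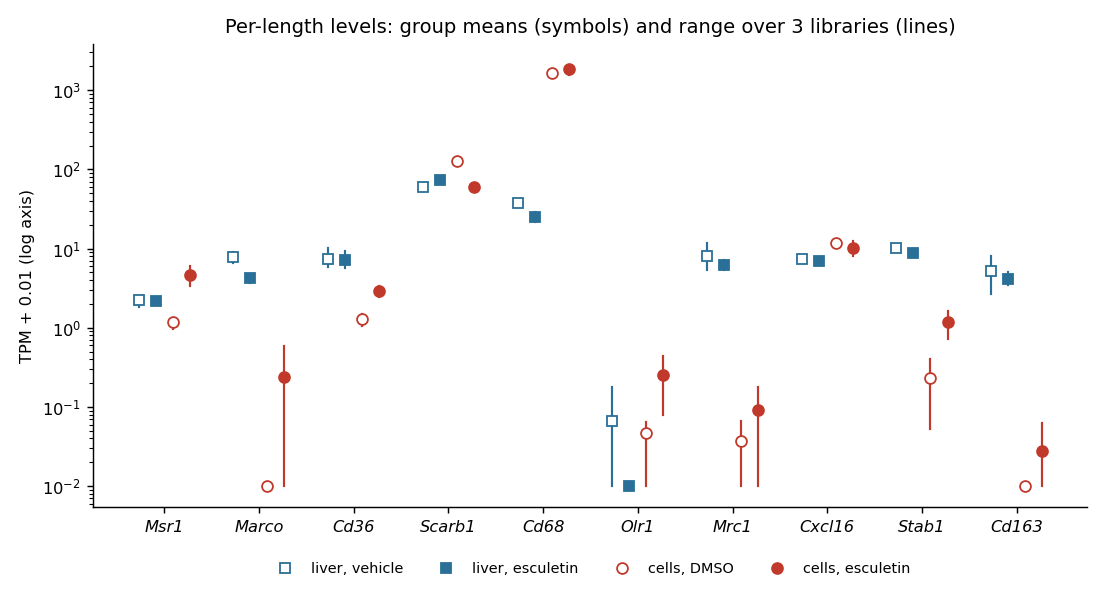
Per-length level of each receptor in TPM plus 0.01 on a log axis, as the group mean (symbol) and the range over 3 libraries (line), for liver (squares) and RAW264.7 cells (circles) with esculetin (filled) or without (open). Scarb1 and Cd68 lead in every group. The group means of Marco, Mrc1 and Cd163 are 0.231 TPM or less in cells but between 4.18 and 7.99 TPM in liver.

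The first comparison asked whether esculetin altered receptor RNA in macrophages already exposed to oxLDL. Msr1, Cd36 and Stab1 rose and Scarb1 fell, whereas Cd68 and Cxcl16 did not pass the threshold and 4 receptors had too few counts to test. The 4 calls among 6 tested receptors stood beside a background of 57.7% of the 13277 tested genes called in this comparison (28.7% higher and 29.0% lower), and the groups of 64.1% of those genes did not overlap, so that the share of receptors called was near that of all genes. The median log2 fold change over the 6 receptors was 0.72, against -0.01 over all tested genes. It includes Stab1, which was tested only because of its esculetin counts.

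**Figure D2:**
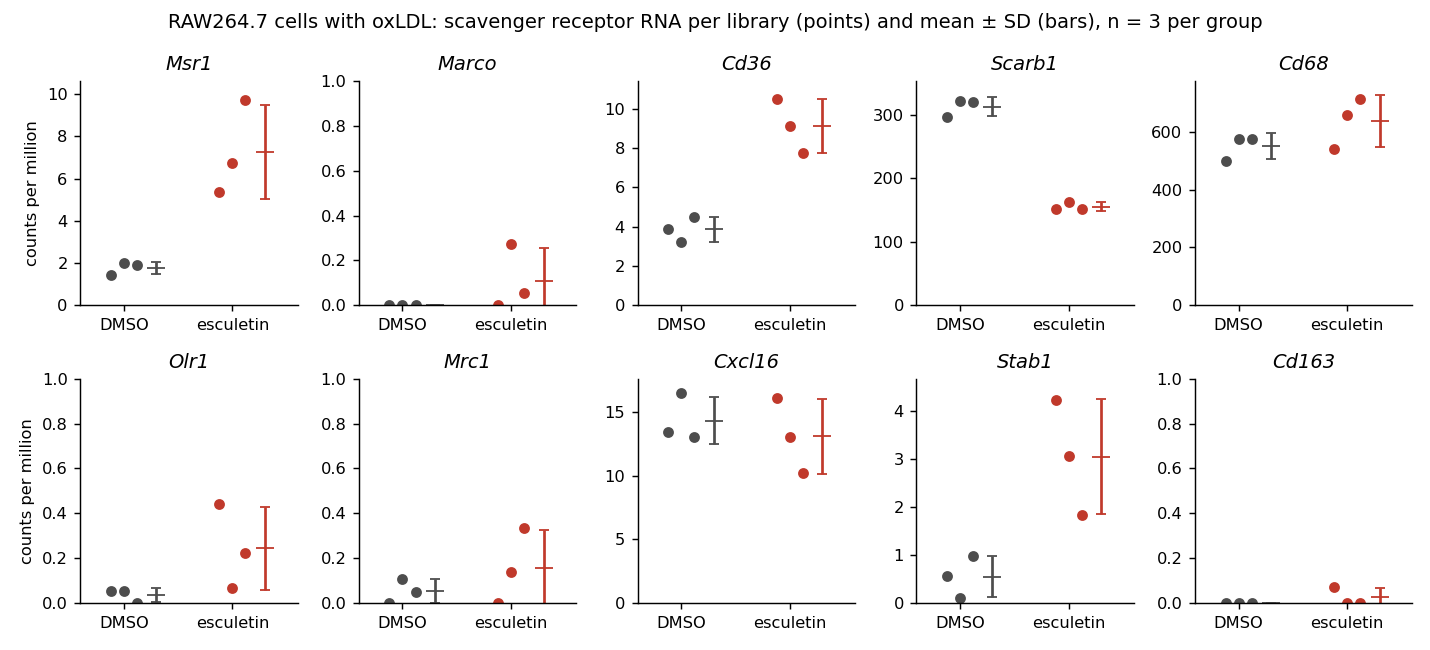
CPM of each receptor in 3 DMSO-treated and 3 esculetin-treated RAW264.7 libraries (points), with the mean and SD beside them and each axis starting at 0. Msr1, Cd36 and Stab1 lie higher and Scarb1 lower in every esculetin library, while Marco, Olr1, Mrc1 and Cd163 stay below 0.5 CPM in every library.

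Among the class A receptors, Msr1 encodes SR-A1, a trimeric receptor for acetylated and oxidized LDL. Its levels were 1.45, 1.99 and 1.90 CPM with DMSO and 5.34, 6.75 and 9.70 CPM with esculetin. Every esculetin library lay above every DMSO library, and the spread was wider with esculetin. Msr1 rose 4.09-fold, a log2 difference of 2.03 (SE 0.27, 95% confidence interval 1.45 to 2.62), with an adjusted p of 6.36e-05 in edgeR's quasi-likelihood test. These values rested on 28 to 39 counts per DMSO library and 73 to 174 per esculetin library. Marco, the class A receptor of resident macrophages, had 0, 0 and 0 counts with DMSO and 0, 4 and 1 with esculetin, which was too few to test (3 counts correspond to between 0.150 and 0.218 CPM here).

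Of the class B receptors, Cd36 encodes the fatty acid and oxLDL receptor on which the study centred. It lies on chromosome 5 (GRCm39, 17986432 to 18094067, minus strand). Its levels were 3.89, 3.23 and 4.48 CPM with DMSO and 10.5, 9.13 and 7.75 CPM with esculetin. The groups did not overlap, with 60 to 92 counts per DMSO library and 134 to 144 per esculetin library. The mean level was 3.86 ± 0.624 CPM with DMSO and 9.14 ± 1.39 CPM with esculetin (SD, n = 3). Cd36 rose 2.35-fold, a log2 difference of 1.23 (SE 0.19, 95% confidence interval 0.81 to 1.66), with an adjusted p of 0.000246 in edgeR's quasi-likelihood test.

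Scarb1 (chromosome 5, GRCm39, 125353547 to 125418176, minus strand), whose product SR-BI exchanges cholesterol with HDL and also binds oxLDL, moved the other way. Its levels were 296, 322 and 320 CPM with DMSO and 152, 163 and 151 CPM with esculetin. The replicates were tight and the groups far apart. Scarb1 fell by 50.2% (log2 fold change -1.01, SE 0.08, 95% confidence interval -1.18 to -0.83, adjusted p = 1.97e-06 in edgeR). It had the largest counts of the 4 receptors called, 2083 to 6586 per library, and the smallest SE. Within a library, Scarb1 gave 76.1, 99.8 and 71.6 counts for each Cd36 count with DMSO and 14.5, 17.9 and 19.5 with esculetin. Scarb1 thus still exceeded Cd36 in every esculetin library, by counts and per length (60.4 ± 3.40 against 2.90 ± 0.435 TPM).

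Stab1 encodes stabilin-1, a class H receptor that takes up acetylated LDL and extracellular matrix fragments. Its levels were 0.570, 0.108 and 0.973 CPM with DMSO and 4.24, 3.07 and 1.84 CPM with esculetin, from 11, 2 and 20 counts and 58, 45 and 33 counts. The groups did not overlap, but 1 DMSO library held only 2 counts. Its DMSO libraries alone would not have met the filter on low counts, so Stab1 was tested because of its esculetin counts. Stab1 rose 5.35-fold, a log2 difference of 2.42 (SE 0.53, 95% confidence interval 1.25 to 3.59), with an adjusted p of 0.0024 in edgeR. Without DMSO replicate 3 it was 3.13. Nt5dc2, which shares 113 exon bases with Stab1 on the opposite strand, fell from 56.0 to 25.0 CPM. The strand setting of the counting is not given in the sources used here, so reads in the shared bases cannot be told apart.

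Cd68 measured 499, 577 and 576 CPM with DMSO and 541, 660 and 716 CPM with esculetin. The groups overlapped through esculetin replicate 1. The log2 fold change of Cd68 was 0.21 (SE 0.11, 95% confidence interval -0.03 to 0.46, adjusted p = 0.121 in edgeR); without esculetin replicate 1 it was 0.32 with an adjusted p of 0.00858. Cxcl16, a membrane-bound chemokine that also binds oxLDL, measured 13.5, 16.5 and 13.1 CPM with DMSO and 16.1, 13.1 and 10.2 CPM with esculetin, which overlapped. Its log2 fold change was -0.13 (SE 0.17, 95% confidence interval -0.51 to 0.24, adjusted p = 0.53 in edgeR). Its exons share 2213 bases with Med11 and 2132 with Zmynd15 on the opposite strand, to which the same limit applies.

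The remaining receptors were close to the counting limit in this line. Olr1 had 1, 1 and 0 counts with DMSO and 6, 1 and 4 with esculetin. Mrc1, the mannose receptor, had 0, 2 and 1 counts and 0, 2 and 6 counts. Cd163 had 1 count in a single esculetin library and 0 in the other 5. The groups of Olr1 shared a count of 1 and held 2 and 11 counts in all. For Mrc1 and Cd163 no difference was detectable at this depth, and none of these genes was tested.

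**Figure D3:**
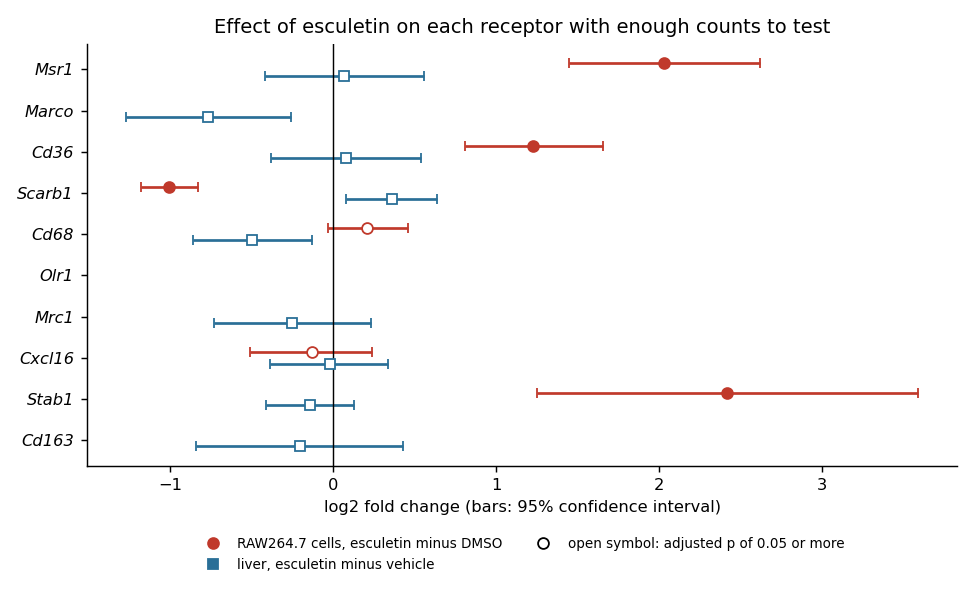
Log2 fold change with its 95% confidence interval for each receptor with enough counts, in RAW264.7 cells (circles, esculetin minus DMSO) and liver (squares, esculetin minus vehicle), filled where the adjusted p was below 0.05 in edgeR. Msr1 (2.03), Cd36 (1.23), Stab1 (2.42) and Scarb1 (-1.01) are filled in cells, and no liver symbol is filled.

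Of 7 markers of macrophages in general, 6 had enough counts in the cells, and 4 rose, beside the 57.7% of all genes called: Csf1r from 848 to 1650 CPM, Lyz2 from 638 to 3500, Itgam from 24.1 to 39.5 and Adgre1 from 33.8 to 41.9. Ptprc (189 and 157 CPM with DMSO and esculetin) and Fcgr1 (15.7 and 17.1 CPM) did not pass the threshold. Their summed level over the 7 genes was between 1720 and 1810 CPM with DMSO and between 4370 and 6690 CPM with esculetin. Its part in the receptor values was not tested.

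The other genes of the pathway were taken from 4 lists of related genes. Among 18 other scavenger receptors, 10 had enough counts in cells, and 6 rose and 1 fell in edgeR. Colec12, the collectin scavenger receptor SRCL, stood at 84.8 ± 5.70 CPM with DMSO and 485 ± 127 CPM with esculetin (log2 fold change 2.52). Cd44, the hyaluronan receptor, rose from 205 ± 10.1 to 798 ± 211 CPM (log2 fold change 1.96). Clec7a, the beta-glucan receptor dectin-1, went from 0.288 ± 0.11 to 5.37 ± 1.44 CPM (log2 fold change 4.17), and Lrp1, an endocytic receptor of lipoproteins and protease complexes, from 2200 ± 115 to 3510 ± 157 CPM (0.67). With 3 to 7 counts per DMSO library, Clec7a was tested only because of its esculetin counts. The median over the 10 was 0.55. The share called was 70.0%, against 57.7% of all genes.

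Of the 18 partners and signalling proteins, 17 were tested, 14 rose and 2 fell (94.1% called, against 57.7% of all genes), with a median log2 fold change of 0.49. Tlr4, which can pair with TLR6 and CD36, rose from 24.3 to 74.7 CPM (log2 fold change 1.62), and the tetraspanin Cd9 from 388 to 945 CPM (1.28). The 2 Src-family kinases reported to act downstream of CD36 moved in opposite directions, Lyn from 118 to 220 CPM (0.90) and Fyn from 71.2 to 39.9 CPM (-0.83). All 4 passed the threshold in edgeR.

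Among 15 ligands, sheddases and downstream enzymes, 11 were tested, 7 rose and 1 fell (72.7% called, against 57.7% of all genes), with a median of 0.53. Hmox1, the haem oxygenase downstream of haemoglobin uptake, rose from 346 ± 24.8 to 4950 ± 1470 CPM (log2 fold change 3.84). Abcg1, an exporter of cholesterol to HDL, was the gene that fell, from 82.8 to 27.4 CPM (-1.60). Adam17, a sheddase of several receptors, rose from 175 to 346 CPM (0.98), and Nceh1, a neutral cholesteryl ester hydrolase, from 48.5 to 79.6 CPM (0.72).

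Among 20 transcription factors known to act on receptor genes, 14 were tested, 8 rose and 2 fell (71.4% called, against 57.7% of all genes), with a median of 0.56. Cebpb, which encodes C/EBP-beta, a member of the family whose motif letters are marked in the promoters above, rose from 38.5 ± 2.07 to 94.0 ± 16.8 CPM (log2 fold change 1.29, adjusted p = 6.49e-06 in edgeR). Stat6 rose from 147 to 242 CPM (0.72) and Nfe2l2, the oxidative stress factor Nrf2, from 94.8 to 155 CPM (0.71). Pparg, a well known activator of Cd36 in macrophages, was not tested, with a mean of 0.0942 CPM with esculetin and 0 with DMSO.

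The liver comparison asked whether the same receptors differed after gavage of esculetin in mice on the high-fat diet. None of the 9 tested receptors passed an adjusted p of 0.05 in edgeR, beside a background of 0.0859% of the 12813 tested genes. At an unadjusted p below 0.05 there were 3 receptors (Marco, Cd68 and Scarb1), against 8.37% of all genes, and DESeq2 and limma-voom also gave 0 adjusted calls. These 3 were also the receptors whose groups did not overlap, against 14.5% of all tested genes. The median log2 fold change over the 9 receptors was -0.14, and over all genes -0.02. In whole liver, fewer cells of a type and less RNA per cell cannot be told apart.

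**Figure D4:**
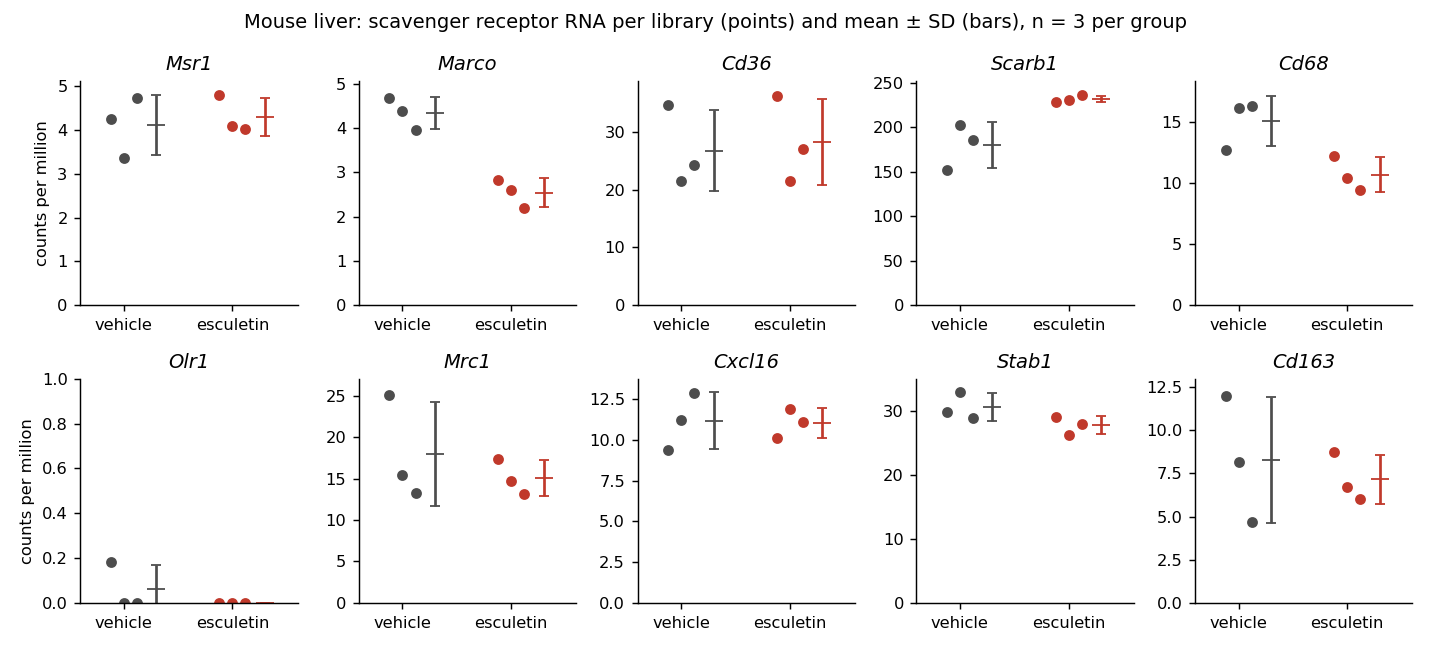
CPM of each receptor in 3 vehicle-treated and 3 esculetin-treated liver libraries (points), with the mean and SD beside them and each axis starting at 0. Marco and Cd68 are lower and Scarb1 is higher in all esculetin libraries, while the groups of the other receptors overlap.

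Marco (chromosome 1, GRCm39, 120402267 to 120432753, minus strand) had levels of 4.67, 4.39 and 3.96 CPM with vehicle and 2.83, 2.60 and 2.2 CPM with esculetin. All esculetin libraries lay below all vehicle libraries, on 34 to 89 counts each. Marco gave a log2 fold change of -0.77 (SE 0.23, 95% confidence interval -1.27 to -0.26), with an unadjusted p of 0.00651 and an adjusted p of 0.364 in edgeR. By the call rule of the study, an unadjusted p below 0.05 with a fold change over 1.5 in limma-voom, Marco was the only receptor called, against 3.89% of all genes.

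Cd68 (chromosome 11, GRCm39, 69555037 to 69557067, minus strand) had levels of 12.7, 16.1 and 16.3 CPM with vehicle and 12.2, 10.4 and 9.38 CPM with esculetin. The groups were apart, though vehicle replicate 1 came close to esculetin replicate 1. The log2 fold change was -0.50 (SE 0.17, 95% confidence interval -0.86 to -0.13, adjusted p = 0.456 in edgeR).

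Kupffer cell markers were given beside these 2 genes. Their summed level was 418, 460 and 525 CPM with vehicle and 458, 436 and 414 CPM with esculetin, which overlapped, and 6 of the 8 markers had a log2 fold change below 0, without any call. Of the macrophage markers in general, 5 of 6 tested were on the lower side, again without a call. The sums over this list were 142 to 177 CPM with vehicle and 145 to 156 CPM with esculetin. Csf1r (54.8 CPM with vehicle and 45.0 with esculetin) and Adgre1 (16.7 and 13.5 CPM), which is in both lists, also separated the groups. This was so for 14.5% of all tested genes. The groups of Lyz2, Ptprc, Fcgr1 and Mertk overlapped. Per 100 Kupffer marker counts, Marco gave 1.12, 0.955 and 0.754 counts with vehicle and 0.619, 0.596 and 0.531 with esculetin. Cd68 gave 3.04, 3.51 and 3.11 with vehicle and 2.67, 2.38 and 2.27 with esculetin. Both ratios separated the groups, as the CPM values had. With a marker sum that overlapped between groups, they repeat the CPM result and are no separate test. The same ratios of Cd163, Mrc1, Stab1, Msr1 and Cxcl16 overlapped.

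**Figure D5:**
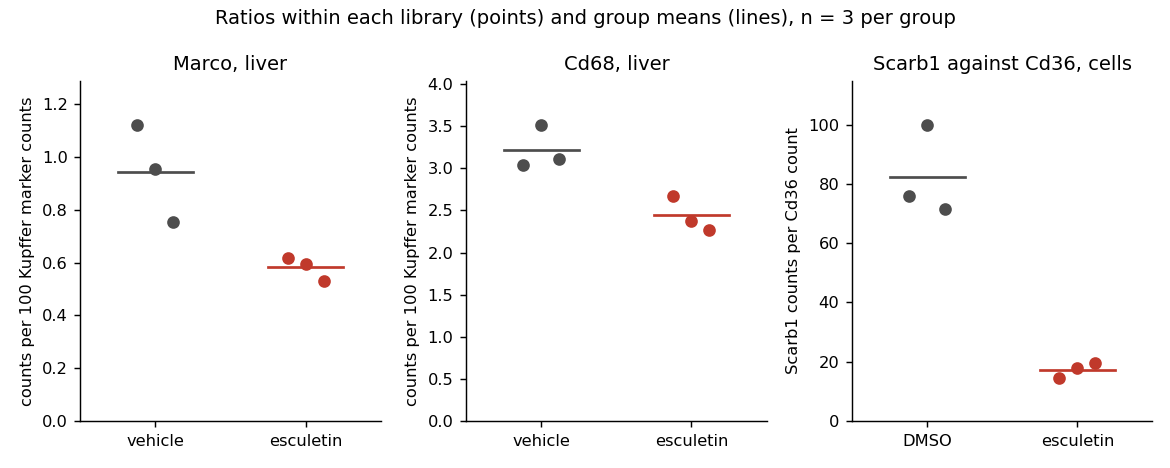
Counts of Marco and Cd68 per 100 Kupffer marker counts in liver, and Scarb1 counts per Cd36 count in RAW264.7 cells, for each library (points) with the group mean (line) and axes starting at 0. The Marco ratio is 0.754 or more in vehicle libraries and 0.619 or less in esculetin libraries, and the Scarb1 to Cd36 ratio lies between 71.6 and 99.8 with DMSO and between 14.5 and 19.5 with esculetin.

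Scarb1 had levels of 152, 203 and 186 CPM with vehicle and 229, 231 and 236 CPM with esculetin. The esculetin libraries were within a narrow band above all vehicle libraries, of which vehicle replicate 1, the library that stood apart, was the lowest. The log2 fold change was 0.36 (SE 0.13, 95% confidence interval 0.08 to 0.64, adjusted p = 0.478 in edgeR), and 0.26 without vehicle replicate 1.

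Cd36 had levels of 34.6, 21.4 and 24.2 CPM with vehicle and 36.1, 21.4 and 27.0 CPM with esculetin. The groups overlapped almost fully, and replicate 1 was the highest in both. The log2 fold change was 0.08 (SE 0.21, 95% confidence interval -0.38 to 0.54, adjusted p = 0.936 in edgeR), an interval that covers a lower as well as a higher level and whose upper bound lies below the 0.81 at the lower bound in cells. Adipocytes also contain much Cd36 RNA. The summed level of 4 adipocyte markers in these livers was 4.24, 15.9 and 25.5 CPM with vehicle and 39.3, 7.79 and 36.4 CPM with esculetin. Most of this sum was Cfd, with 4.24, 15.3 and 25.3 CPM and 37.1, 7.40 and 29.8 CPM, respectively. Adipoq, Plin1 and Lep had too few counts to test. The part of adipocyte RNA in the Cd36 values was not tested.

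The groups of the other liver receptors overlapped. Msr1 lay between 3.36 and 4.80 CPM over all 6 libraries, and Cxcl16 between 9.40 and 12.9. Stab1 lay between 26.3 and 33.1 CPM. Mrc1 and Cd163 varied most within a group, and both were highest in vehicle replicate 1, with 25.1 and 12.0 CPM against 13.1 to 17.4 and 4.66 to 8.77 CPM in the other libraries. Their log2 fold changes, -0.25 and -0.20, became 0.08 and 0.16 without that library. Olr1 had 3 counts in 1 vehicle library and 0 in the other 5, and was not tested.

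None of the 65 pathway genes tested in liver over the same 4 lists passed the threshold in edgeR, with medians of -0.08 (15 other scavenger receptors), -0.04 (17 partners), -0.17 (14 ligands and enzymes) and -0.02 (19 transcription factors). Nfe2l2 stood at 60.2 CPM with vehicle and 35.3 CPM with esculetin (adjusted p = 0.165 in edgeR). Cebpb stood at 64.0 and 105 CPM, respectively (adjusted p = 0.209 in edgeR). The groups overlapped for neither gene, which was so for 14.5% of all tested genes. Over the 4 lists, in the order above, the groups of 2, 2, 1 and 5 tested genes did not overlap. Both were called with DESeq2, without a filter on low counts and with the replicate block, but not with limma-voom or the other scalings. The share of all genes called under those settings is not given here. Cebpd stood at 9.78 and 15.7 CPM. Adjusted p-values of other genes with small p in their lists (Vldlr, Scara3, Scara5, Vav1, Tlr2, Syk, Selenok, Lipa, Hmox1, Adam17 and Npc1) ran from 0.472 to 0.75 in edgeR.

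The difference between the effect in cells and the effect in liver was then tested over all 12 libraries. It passed the threshold for 6 of 9 receptors, beside 27.1% of the 15709 genes tested. The log2 difference, cells minus liver, was 1.11 for Cd36 (SE 0.31, adjusted p = 0.015 in edgeR), 1.91 for Msr1 (SE 0.36, adjusted p = 0.000898 in edgeR) and 2.49 for Stab1 (SE 0.46, adjusted p = 0.000822 in edgeR). Scarb1 gave -1.41 (SE 0.15, adjusted p = 9.88e-06 in edgeR), with a log2 fold change of -1.01 in cells and 0.36 in liver. In limma-voom the Cd36 difference had an adjusted p of 0.0526. Tissue, dose, time and solvent differed together between the tables and cannot be told apart.

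The difference was 0.67 for Cd68 (SE 0.19, adjusted p = 0.0178 in edgeR) and had an adjusted p of 0.057 without esculetin liver replicate 3. For Marco it was 4.24 (SE 1.32, adjusted p = 0.028 in edgeR), but it rested on 0 to 4 counts per cell library, and without esculetin cell replicate 2, which held 4 of the 5 counts, it was 2.72 with an adjusted p of 0.229. It also had adjusted p-values of 0.0533 to 0.0597 in edgeR without any 1 of the DMSO libraries. As a fitted value against counts of 0 it depends on the prior count and is no bound. Cxcl16 (-0.15), Mrc1 (1.77) and Cd163 (1.79) were not called, the latter 2 on the same kind of near-empty cell counts.

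The genes whose levels followed Cd36 most closely were Cmc1, Nol8 and Zfp874a in liver, with Pearson correlations of log2 CPM of 0.987, 0.982 and 0.980 over the 6 libraries. They share those libraries and depths with Cd36. In cells they were Glt1d1, Gm28439 and Jmjd4 (0.998, 0.997 and 0.996), where the libraries fell into the 2 treatments and 1729 of 13276 genes exceeded 0.9. Among the receptors in cells, the correlation with Cd36 was 0.96 for Stab1, 0.87 for Msr1, 0.44 for Cd68, -0.23 for Cxcl16 and -0.95 for Scarb1. In liver the 8 tested receptors other than Cd36 ran from -0.80 (Cxcl16) to 0.66 (Mrc1). Stab1 gave 0.00 there, Msr1 0.58 and Scarb1 -0.29.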

How the data were processed

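RNA was sequenced from 6 liver and 6 RAW264.7 libraries prepared with the NEBNext Ultra kit. The authors mapped the reads with HISAT2 2.2.1 to GRCm39 and deposited raw counts per gene from featureCounts, without normalization; the annotation release and strand setting are not given in the sources used here. All value columns were used. Symbols came from GENCODE vM39, which matched 54749 of 55357 identifiers. Each table was tested with edgeR 4.0.16 (R 4.3.3): filterByExpr, TMM factors, a quasi-likelihood test of treatment, two-sided, and Benjamini-Hochberg adjustment over all tested genes, called below 0.05. The difference between tables was a contrast in a model of 4 groups. The tests were checked on simulated data. CPM used library totals over the tested genes, multiplied by the TMM factors. TPM used merged exon lengths. The labels do not say that the cell libraries were separate cultures, so p-values measure the spread between these samples, which may be technical. Intervals and limits cover counting and replicate error only.

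The receptors, lists and tests were chosen with earlier results of these data known. All 10 receptors are named, with the 4 genes of smallest p in each list and table, listed markers and the 3 genes most correlated with Cd36. A few genes that this rule names are not reported here. Same-numbered libraries showed no clear pairing. Correlations of their deviations from group means were 0.14, -0.005 and 0.103 in liver and 0.165, -0.03 and 0.08 in cells. Between different numbers they ran from -0.151 to 0.089 in liver and from -0.17 to 0.108 in cells. With 3 libraries per group, this check cannot exclude pairing. Alternatives were other scalings (RLE, upper quartile, library size only), other filters, DESeq2 1.42.0, limma-voom (limma 3.58.1), a replicate block, other call rules and leaving out each library. Promoter sequences came from RefSeq (GRCm38.p6), searched on both strands; 7 of 10 receptors matched.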

Additional observations from a re-analysis of the deposited data

Results flagged for a closer look

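The effect of esculetin on 6 receptors differed between RAW264.7 cells and liver by the test of the difference itself in edgeR (log2, cells minus liver): Cd36 by 1.11, Msr1 by 1.91, Stab1 by 2.49, Cd68 by 0.67, Marco by 4.24 and Scarb1 by -1.41. The same test called 27.1% of all 15709 genes tested. In limma-voom the Cd36 difference had an adjusted p of 0.0526. For Cd36, Msr1 and Stab1 the cell value was past the threshold and the liver interval included 0. For Scarb1 the log2 fold change was -1.01 in cells, and every esculetin liver library lay above every vehicle library. Its liver change had an adjusted p of 0.478 in edgeR, and the liver groups of 14.5% of all tested genes did not overlap. For Cd68 neither table alone gave a call. The Marco value rests on 5 counts in the cells. The 2 tables differ in tissue, dose, time and solvent at once, and the part of each was not tested.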

How the results depend on the processing

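In cells, Cd36, Msr1, Stab1 and Scarb1 kept their direction and call under each of the 14 alternatives, with log2 fold changes of 1.12 to 1.37, 1.76 to 2.21, 1.96 to 3.13 and -1.07 to -0.98. The number of receptors called in cells was 4 or 5 with 1 library left out. It was 5 with the replicate block, where Cd68 was added (adjusted p = 0.0472 in edgeR). Whether library numbers pair the samples is not known. In liver no receptor was called under any alternative but the study's rule in limma-voom, which called 1 (Marco). Scaling by library size only moved the median log2 fold change of all genes to -0.09 in liver and -0.08 in cells. The listed pathway genes called in liver were 0 as reported, 4 with DESeq2, 6 without a filter on low counts and 4 with the replicate block. With 1 library left out they were 0 to 3 (1 without vehicle replicate 1, 3 without vehicle replicate 3). The share of all genes called under these settings is not given here, so these counts are no result about the lists. The cause was not tested. The receptors whose effects differed between tables numbered 5 to 6 with 1 library left out. Directions that reversed belonged to values whose confidence intervals included 0. In liver, Cd36 gave -0.00184 with library size only. With 1 library left out, log2 fold changes in liver ran from -0.16 to 0.31 for Cd36 (-0.06 and -0.00645 without vehicle replicates 2 and 3), -0.06 to 0.17 for Msr1 (-0.03 without esculetin replicate 1), -0.13 to 0.08 for Cxcl16 (0.03 without esculetin replicate 1), -0.44 to 0.08 for Mrc1 and -0.51 to 0.16 for Cd163. Cxcl16 ran from -0.3 to 0.02 in cells, and its difference between tables from -0.33 to 0.02 (0.01 without esculetin cell replicate 3). With 3 libraries per group, an exact permutation test of 1 gene could not go below p = 0.1, so calls rest on the model across all genes, and Stab1, Olr1, Marco, Mrc1 and Cd163 in cells are limited by their counts.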
